A study of Mus musculus with 2 samples.

Results

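The genes described here are 40 genes that type I interferon is known to induce, followed across the cell types and treatment groups of a mouse tumour study. They were listed by name, for their known induction, although earlier results of these data were known when the list was made. All 40 were among the 22836 genes of the deposited count table. RNA had been read in single CD45+ cells, that is leukocytes, from Colon26 tumours, which come from a colon carcinoma line of the mouse and grew under the skin of wild type BALB/c mice. Each of 14 mice was marked by its own hashtag antibody. Control mice (n = 3) carried tumours and were not treated. The minP1 group (n = 4) received 0.08 µg of minP1, an immunostimulatory peptide of the nucleosome-binding protein HMGN1, by injection into the peritoneum on day 9. The PDL1 group (n = 3) received 200 µg of the antibody 10F.9G2 against PD-L1, the ligand of the inhibitory receptor PD-1, on day 4 and again on day 8. The minP1_PDL1 group (n = 4) received both. All tumours were taken on day 10.

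Type I interferons are secreted by cells that sense foreign or misplaced nucleic acid. They bind a receptor of IFNAR1 and IFNAR2 chains, whose kinases activate STAT2, which acts with IRF9 in a complex that binds interferon-stimulated response elements in promoters. The genes switched on in this way hinder viral growth, raise the sensing of nucleic acid and, through IRF7, amplify the response. Many of them also respond to interferon gamma or type III interferon, so their RNA does not name the interferon. In tumours, type I interferon is known for its part in the priming of T cells by dendritic cells. The 40 genes were grouped by role into 4 sensors of nucleic acid, 3 transcription factors, 11 RNA binders and synthetases, 7 GTPases and nucleotide or membrane effectors, 6 genes of the ISG15 system and ubiquitin ligases, and 9 ADP-ribosyl transferases and other induced genes.

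After the cell filter, 7732 cells remained, between 466 and 724 per mouse. A mouse had from 26007834 to 51230461 counts in total. At the median, a cell had 39132.5 counts and 2078 genes detected. The counts were reads that had not been collapsed by molecular identifier. Treatments were given to mice, and every test took the mouse as its unit. The labels call the cells intestinal although the tissue is a subcutaneous tumour. Ptprc, which encodes CD45, lay between 934.1 and 1469 CPM in the 14 mice, yet 549 cells fell into 3 clusters with markers of fibroblasts or epithelium, called non-immune here. The labels speak of separate runs, while all barcodes of the table carry 1 library tag, and no run is given for any mouse. No barcode was shared between mice (0). Cells were clustered without the 40 genes, and the cell type names below stand for clusters that resembled the type by its markers.

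Promoter windows show where letters of the response element lie, and a few that hold it are printed here. RefSeq gave a window of 250 bases before to 50 bases after the transcription start (build GRCm38.p6) for 28 of the 40 genes. The core of the interferon-stimulated response element, GAAA followed after any 2 bases by another GAAA and searched on both strands, was found for 14 of the 28 genes (50%), against 3.993% of 27025 genes with windows of the same length. The extended element, the core followed at once by CT, was found for 7 of the 28 (25%), against 0.3034% of all genes. These 7 were Bst2, Ddx58, Ifit1, Ifit3, Ifit3b, Oas1a and Trim30a. The palindrome TTCNNNGAA, bound by STAT factors, was found for 6 of the 28 (21.43%), against 9.554% of all genes. In the windows below, capitals mark matches to the core or the extended element on either strand, and a match on the reverse strand reads TTTC, 2 bases and TTTC. Isg15 had 3 overlapping core matches, the first of them 78 bases before the start:
Isg15, chr4:156200769-156201068, minus strand: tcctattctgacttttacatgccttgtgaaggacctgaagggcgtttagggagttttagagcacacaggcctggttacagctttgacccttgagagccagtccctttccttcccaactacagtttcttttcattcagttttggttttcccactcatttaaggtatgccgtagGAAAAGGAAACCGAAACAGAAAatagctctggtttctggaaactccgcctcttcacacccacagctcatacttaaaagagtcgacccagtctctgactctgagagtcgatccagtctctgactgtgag
The neighbouring genes Ifit1, Ifit3 and Ifit3b each had 2 matches, of which both in Ifit1 and 1 each in Ifit3 and Ifit3b were extended:
Ifit1, chr19:34640639-34640938, plus strand: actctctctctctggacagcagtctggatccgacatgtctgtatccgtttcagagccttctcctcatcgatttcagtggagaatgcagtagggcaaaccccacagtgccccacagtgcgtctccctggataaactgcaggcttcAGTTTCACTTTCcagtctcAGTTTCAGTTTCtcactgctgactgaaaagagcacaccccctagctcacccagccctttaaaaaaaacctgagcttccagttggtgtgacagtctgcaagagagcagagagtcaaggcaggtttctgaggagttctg
Ifit3, chr19:34583279-34583578, plus strand: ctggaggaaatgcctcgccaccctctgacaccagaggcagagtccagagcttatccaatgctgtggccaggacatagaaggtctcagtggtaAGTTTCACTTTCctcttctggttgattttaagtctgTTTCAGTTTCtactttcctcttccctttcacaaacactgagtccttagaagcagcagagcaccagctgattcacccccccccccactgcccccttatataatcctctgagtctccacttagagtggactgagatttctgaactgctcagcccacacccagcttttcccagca
Ifit3b, chr19:34607707-34608006, plus strand: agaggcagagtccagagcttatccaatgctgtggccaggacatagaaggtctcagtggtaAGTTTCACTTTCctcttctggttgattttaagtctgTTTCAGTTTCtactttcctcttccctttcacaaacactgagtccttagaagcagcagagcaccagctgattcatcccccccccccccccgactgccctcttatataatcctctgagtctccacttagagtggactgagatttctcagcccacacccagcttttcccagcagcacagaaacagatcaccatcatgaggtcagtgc
Oas3 is shown as a member with a single core match, 75 bases before the start:
Oas3, chr5:120777610-120777909, minus strand: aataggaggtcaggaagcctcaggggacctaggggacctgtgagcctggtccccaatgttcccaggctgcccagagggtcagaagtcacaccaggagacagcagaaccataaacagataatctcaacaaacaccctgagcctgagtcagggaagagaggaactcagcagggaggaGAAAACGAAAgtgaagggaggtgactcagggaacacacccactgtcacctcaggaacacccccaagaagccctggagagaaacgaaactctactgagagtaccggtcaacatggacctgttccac
The windows of Irf9, Herc6 and Oasl2 held neither element, which says only that these letters are not in these windows. A match is a description of letters and not a measured binding site.

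The list was not evenly spread over the leukocytes of the tumour. Summed counts per mouse and class were compared between neutrophils, monocytes and macrophages, dendritic cells, T cells and NK cells, each class against the mean of the other classes within mice (edgeR, Benjamini-Hochberg adjustment over 12363 genes, threshold 0.05). Neutrophils had 32 of the 40 genes higher and 2 lower, where 15.1% of all genes were higher and 31.5% lower. The median log2 difference of the 40 genes was 1.57, and that of all genes was -0.44. Monocytes and macrophages had 16 genes higher and 2 lower (18.7% and 6.31% of all genes), with a median of 0.43. Dendritic cells were mixed, with 13 higher and 11 lower (17.2% and 11.4%). T cells had 1 higher and 24 lower (16.1% and 13.4%), and NK cells 0 higher and 32 lower (15.1% and 14.4%). By DESeq2, NK cells had 0 higher and 34 lower. Without the cells of a doublet score over 0.5, dendritic cells had 8 higher. The genes lower in neutrophils were 4 without minP1_PDL1_1, and those lower in monocytes and macrophages were 1 without any of 8 mice (Control_1, Control_3, minP1_1, minP1_2, minP1_4, PDL1_1, PDL1_2 or minP1_PDL1_4, left out singly).

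The roles differed in how far they set neutrophils apart. All 11 RNA binders and synthetases were higher in neutrophils than in the other classes, with a median log2 difference of 3.27. So were all 6 genes of the ISG15 system and ubiquitin ligases (median 2.12) and all 3 transcription factors (median 1.07). Of the 4 sensors, 3 were higher. Of the 7 GTPases and effectors, 4 were higher and Bst2 was lower, and of the 9 genes of the last group, 5 were higher and Ifi44 was lower.

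Rsad2 encodes viperin, an enzyme that makes a chain-terminating nucleotide. Its level, as CPM of the class's own total, was 1738 ± 842 in neutrophils (SD, n = 13 mice), from a lowest mouse of 523 to a highest of 3162. It was 175 ± 55.2 in monocytes and macrophages (n = 14) and 71.9 ± 76.9 in dendritic cells. T cells had 36.7 ± 46.5 and NK cells 22.4 ± 22.6. Every mouse's neutrophils thus lay above every mouse's monocytes and macrophages, of which the highest had 272 CPM, and the ranges of the lower classes overlapped. The difference of neutrophils from the other classes was 5.09 on the log2 scale (SE 0.30, edgeR adjusted p = 6.8e-22).

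Ifit1 binds viral RNA that lacks the cap methylation of the host. It had 355 ± 155 CPM in neutrophils, 31.0 ± 13.9 in T cells and 28.4 ± 8.77 in monocytes and macrophages. Dendritic cells had 14.3 ± 12.98 and NK cells 7.91 ± 11.1. T cells and monocytes and macrophages did not differ beyond their spread. Neutrophils stood 4.55 above the other classes (log2, SE 0.30, edgeR adjusted p = 7.2e-20). Ifit3b had 144 ± 107 CPM in neutrophils and between 1.52 and 5.68 CPM as the mean of any other class, a log2 difference of 5.44 (SE 0.47, edgeR adjusted p = 2.6e-15). Its longest transcript is 97.82% identical to that of Ifit3 over 1700 aligned bases, so reads may have been split between both genes, and both values are uncertain. Ifit3 itself had 142 ± 83.1 CPM in neutrophils and 28.4 ± 12.98 in monocytes and macrophages.

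Other members stood above the mean of the other classes in monocytes and macrophages. Ifi44, an interferon-induced protein of the cytosol, had 215 ± 45.1 CPM there, from 128 to 310, near the 195 ± 57.1 of dendritic cells and above 47.9 ± 67.3 in neutrophils and 18.1 ± 14.3 in T cells (log2 2.16 above the other classes, SE 0.28, edgeR adjusted p = 3.7e-09). Phf11d, an interferon-induced PHD finger protein, had 29.3 ± 8.33 CPM in monocytes and macrophages and 28.7 ± 16.5 in dendritic cells (1.99 above, SE 0.34, edgeR adjusted p = 3.3e-06). Oasl2, a relative of the oligoadenylate synthetases, had 41.9 ± 10.2 CPM there, below the 125 ± 88.5 of neutrophils, but stood 1.89 above the mean of the other classes (SE 0.31, edgeR adjusted p = 1.3e-06).

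Dendritic cells were highest for Bst2, the membrane protein tetherin that holds budding virus at the cell surface. Bst2 had 361 ± 90.02 CPM there, from 227 to 502, and 117 ± 12.7 in monocytes and macrophages, so that the mice of these classes did not overlap (log2 2.46 above the other classes, SE 0.10, edgeR adjusted p = 6.3e-29). Within dendritic cells the plasmacytoid cluster had 777.9 ± 148.0 CPM in 11 mice. Bst2 is among the markers listed for that cell type, but the members took no part in naming clusters. Ifi44 (1.91, SE 0.28, edgeR adjusted p = 1.0e-07) and Phf11d (1.68, SE 0.34, edgeR adjusted p = 6.4e-05) were also higher in dendritic cells, at levels near those of monocytes and macrophages. T cells were higher for Ifi27l2a alone, a small protein of mitochondria, with 834 ± 171 CPM (0.61, SE 0.14, edgeR adjusted p = 0.00052), while NK cells had 95.8 ± 51.5 of it. Neutrophils had 794 ± 382, dendritic cells 833 ± 238 and monocytes and macrophages 983 ± 177, so that T cells stood above the mean of the others and not above each of them. The largest shortfalls of NK cells were in Oas2 (-4.27), Oasl2 (-4.23) and Ifit3b (-3.20), genes named here after their values were seen.

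Ly6e, a membrane protein anchored by lipid, had 1017 ± 136 CPM in monocytes and macrophages and 692 ± 192 in dendritic cells, down to 102 ± 43.3 in NK cells. By contrast, Mx2 averaged between 6.51 CPM in neutrophils and 15.2 CPM in dendritic cells, and no class differed from the others in it. Mx1 and Mx2 encode dynamin-like antiviral GTPases. Classical inbred mouse strains are known to carry defective Mx genes, and the annotation lists Mx2 as a polymorphic pseudogene. Mx1 averaged between 18.1 and 33.8 CPM in the 5 classes.

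Within classes, the clusters differed further. The members' summed counts were 97.0 ± 25.3 per 10000 counts in the monocytes led by Chil3 and Dmkn (14 mice) and 95.8 ± 26.2 in neutrophils (13 mice). The cluster led by Ly6i and marked by Cxcl9, which carried both dendritic and macrophage markers and entered no class, had 73.1 ± 16.03 (12 mice). This cluster did not appear with members among the variable genes, at Leiden resolution 0.5 or without the cell filter. There a cluster led by Chil3, within monocytes and macrophages, had Ly6i among its top 10 genes. Macrophages led by Apoe and C1qb had 43.0 ± 5.93, those led by Mmp12 and Arg1 43.9 ± 11.7, and those led by Ch25h and C1qc 34.8 ± 8.03 (6 mice). Plasmacytoid and conventional DC2 clusters had 44.7 ± 10.7 and 44.6 ± 13.6. Regulatory T cells had 41.3 ± 6.57, beside 27.5 ± 9.26 in the T cell cluster led by S1pr1 and Dusp10. Gamma delta T cells had 19.9 ± 8.17 (8 mice) and CD8 T cells 16.9 ± 4.78. Ifi27l2a alone had 1836 ± 343 CPM in regulatory T cells and 572 ± 216 in the S1pr1 cluster. The mean log2 level of the 40 genes weights them equally. It was 4.72 ± 0.40 in regulatory T cells and 4.78 ± 0.65 in the S1pr1 cluster, the opposite order and within the spread. Gamma delta T cells had 3.45 ± 0.98 and CD8 T cells 3.40 ± 0.52. NK cells led by Gzma had 14.1 ± 3.38 and those led by Gzmc 16.4 ± 5.16. The first and second of these clusters did not differ beyond their spread, nor did the 5 myeloid clusters from Ch25h to DC2. Among the clusters of this paragraph, median depth per cell ran from 13414 counts in neutrophils to 118281 in Apoe macrophages. It was 16092 in the S1pr1 cluster, 19206 in gamma delta, 19507 in regulatory and 54360 in CD8 T cells. Macrophages led by Mmp12 and Arg1 had a median of 18607 and NK cells led by Gzma 23939. A level near 0 thus rests on fewer reads per cell in these clusters, in neutrophils and in T cells other than CD8.

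**Figure D1:**
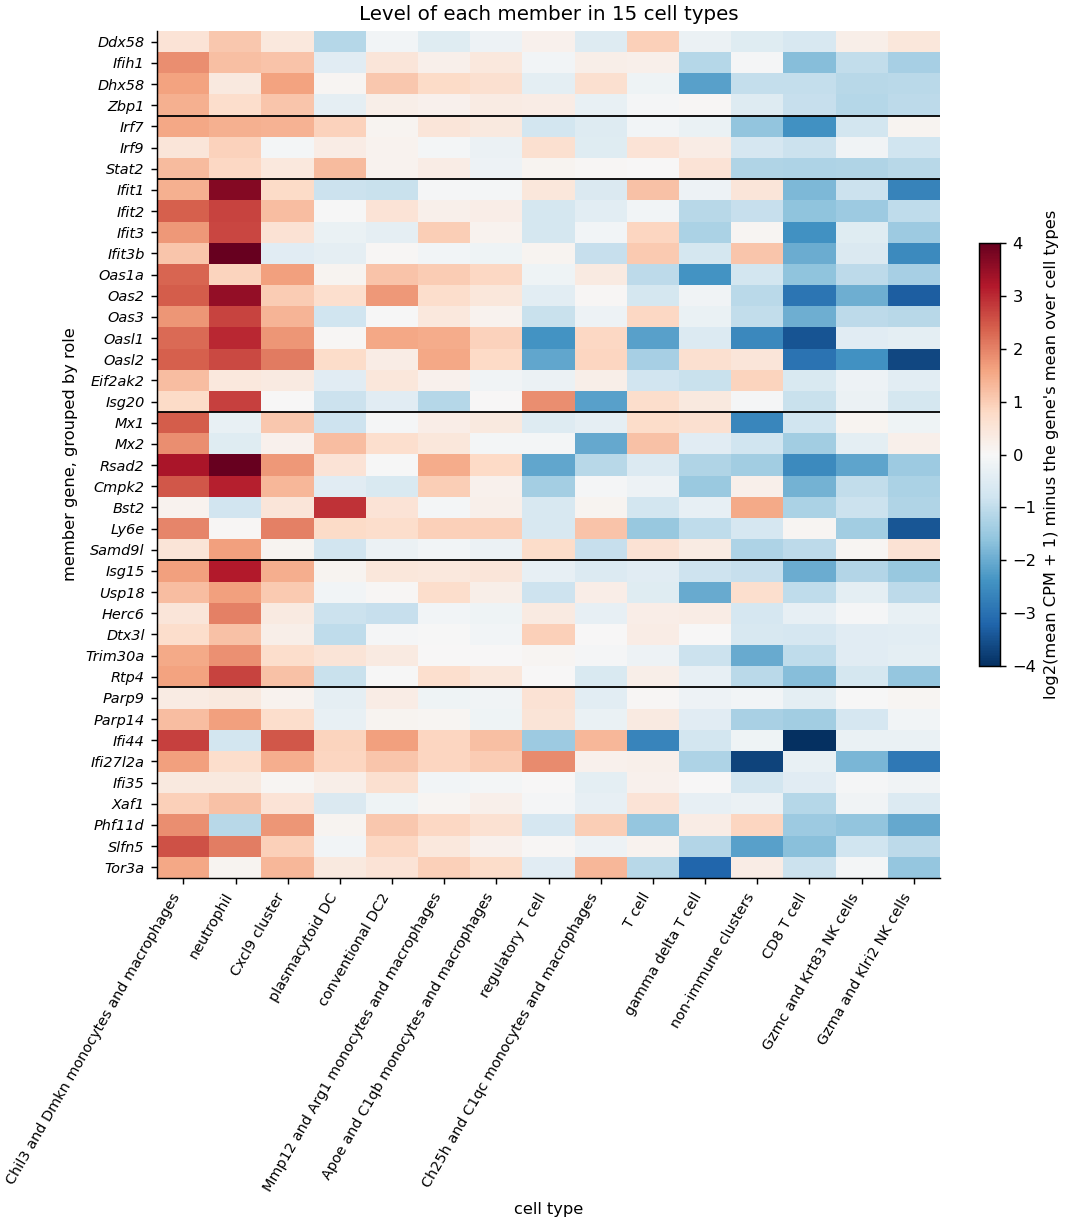
Level of each of the 40 genes (rows, grouped by role with black lines between groups) in 15 cell types (columns, ordered by the members' summed counts per 10000, highest at the left). Colour gives log2(mean CPM + 1) minus the gene's mean over the cell types, held within -4 and 4. Red fields gather in the Chil3 monocyte and neutrophil columns, which were the highest types for 12 and 22 genes, and CD8 T cells were the lowest for 16.

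The highest cell type was the neutrophil for 22 of the 40 genes and the Chil3 monocyte for 12. The Cxcl9 cluster and regulatory T cells were each highest for 2, and conventional DC2 and plasmacytoid DC for 1 each. Rsad2, for one, had 727 ± 588 CPM in Chil3 monocytes against 131 ± 55.8 in Apoe macrophages. Irf7, the factor that amplifies the response, had 328 ± 175 CPM in Chil3 monocytes, 293 ± 135 in the Cxcl9 cluster and 298 ± 114 in neutrophils, which did not differ beyond their spread. It had 19.9 ± 14.4 CPM in CD8 T cells. These values are descriptions, since clusters were not tested against each other.

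The first treatment question was what the antibody did to the list, with or without the peptide. In sums over all CD45+ cells, 38 of the 40 genes lay higher in the 7 mice with antibody than in the 7 without, with a median log2 difference of 0.34 against -0.00 over all 18410 genes tested. No single gene passed edgeR's adjusted threshold, neither among the 40 (0) nor among all genes (0%). At an unadjusted p under 0.05, 25 of the 40 were higher and 0 lower, against 3.72% and 4.6% of all genes. DESeq2 called 8 of the 40 higher, Herc6, Irf9, Isg15, Oas3, Oasl2, Rtp4, Trim30a and Xaf1, among 126 genes in all (0.684%). All 40 passed the filter on low counts.

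Rtp4, a chaperone that also curbs interferon signalling, had 72.4, 70.0 and 65.4 CPM in the Control mice and 50.9, 81.3, 69.2 and 77.01 in the minP1 mice. It had 91.7, 120.8 and 106.2 CPM in the PDL1 mice and 92.5, 96.4, 101.4 and 95.3 in the minP1_PDL1 mice. Every mouse with antibody lay above every mouse without. The log2 difference was 0.54 (SE 0.10, edgeR adjusted p = 0.130).

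Oasl2 had 25.4, 20.3 and 26.5 CPM in Control and 12.6, 28.0, 25.1 and 29.1 in minP1. The PDL1 mice had 44.5, 44.3 and 43.6 CPM and the minP1_PDL1 mice 43.1, 36.9, 44.2 and 32.4. Here too the mice with and without antibody did not overlap, and the PDL1 mice lay within 1 CPM of each other (44.1 ± 0.459 against 24.1 ± 3.34 in Control). Fitted on the log2 scale, it differed by 0.80 (SE 0.16, edgeR adjusted p = 0.190).

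Oas3, a synthetase whose product activates the RNA-cleaving enzyme RNase L, had 15.4, 14.0 and 15.8 CPM in Control and 12.99, 21.9, 22.3 and 19.2 in minP1. It had 25.7, 30.3 and 22.6 CPM in PDL1 and 26.1, 20.1, 27.9 and 26.4 in minP1_PDL1. The lowest mouse with antibody lay within the range of the minP1 mice, and the PDL1 mice lay above the Control mice without overlap. The log2 difference was 0.59 (SE 0.13, edgeR adjusted p = 0.223).

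Irf9, the DNA-binding part of the complex with STAT2, had 55.5, 59.8 and 59.5 CPM in Control and 48.4, 60.2, 63.8 and 55.4 in minP1. It had 75.2, 73.0 and 74.7 CPM in PDL1 and 64.4, 72.4, 85.8 and 69.2 in minP1_PDL1. The mice with antibody lay above those without, with little room between them. Fitted on the log2 scale, it differed by 0.35 (SE 0.08, edgeR adjusted p = 0.225).

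Isg15, a ubiquitin-like protein joined to other proteins and also secreted, had 91.9, 85.6 and 91.4 CPM in Control and 47.5, 78.5, 84.3 and 91.2 in minP1. It had 127.4, 135.8 and 100.3 CPM in PDL1 and 96.6, 125.7, 130.8 and 106.2 in minP1_PDL1. The groups with and without antibody did not overlap, and minP1_1 lay far below the other minP1 mice. The log2 difference was 0.52 (SE 0.13, edgeR adjusted p = 0.318).

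Herc6, the mouse ligase that joins ISG15 to its targets, had 38.4, 30.8 and 31.7 CPM in Control and 30.6, 45.5, 34.4 and 33.3 in minP1. It had 45.0, 41.9 and 41.4 CPM in PDL1 and 44.0, 48.1, 49.7 and 45.7 in minP1_PDL1. The mouse minP1_2 lay among the mice with antibody, and the others without antibody lay below all of them. Fitted on the log2 scale, it differed by 0.36 (SE 0.09, edgeR adjusted p = 0.321), and 0.22 without the non-immune clusters.

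**Figure D2:**
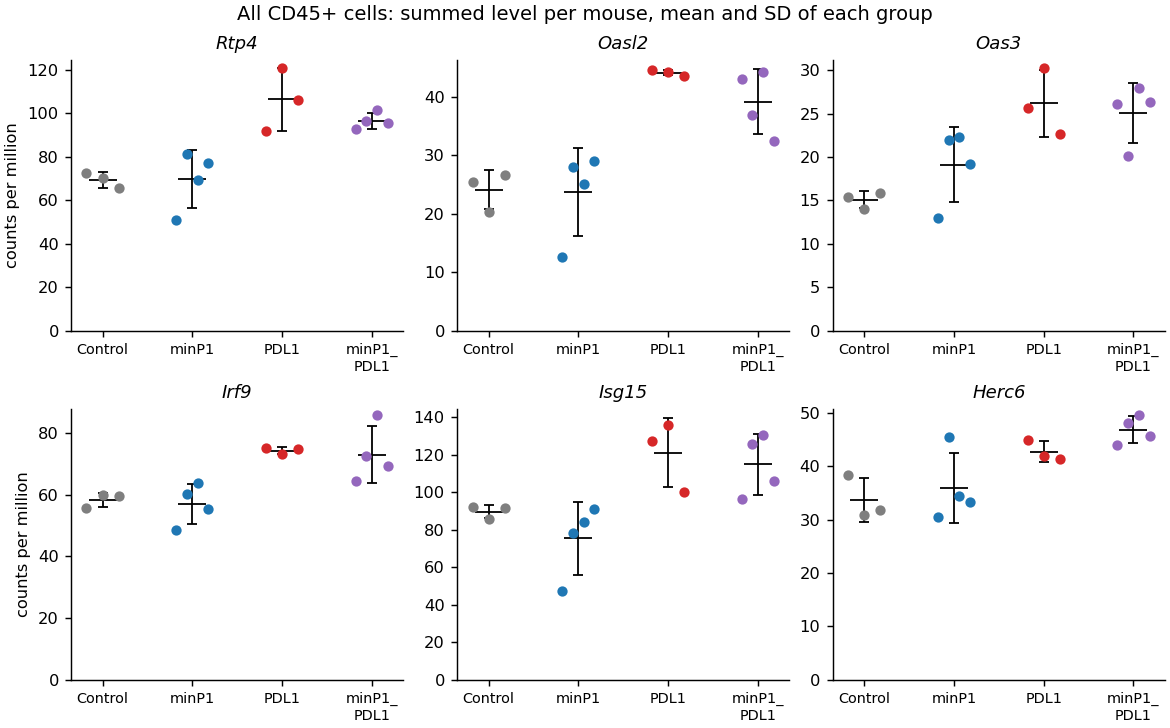
CPM of Rtp4, Oasl2, Oas3, Irf9, Isg15 and Herc6 in sums over all CD45+ cells (vertical axis), with 1 point per mouse for the 4 groups (horizontal axis), black marks for group means and bars for SD. The PDL1 and minP1_PDL1 points sit above the Control points in all 6 genes, and they overlap the minP1 points in Oas3 and Herc6.

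Over the 40 genes, 5 had every mouse with antibody above every mouse without, namely Irf9, Isg15, Oasl2, Rtp4 and Samd9l, the last an inhibitor of translation. Over all 18410 genes this held for 15 (0.0815%). By role, all 3 transcription factors lay higher, between 0.34 and 0.35 on the log2 scale. The 11 RNA binders and synthetases had a median of 0.50 and ran from -0.03 for Eif2ak2, the kinase PKR that halts translation, to 0.94 for Ifit3b. The 6 genes of the ISG15 system and ubiquitin ligases had a median of 0.44. The 7 GTPases and effectors had 0.29, the 9 other induced genes 0.26 and the 4 sensors 0.25. Tor3a (-0.02) was the other gene that did not lie higher.

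A sum over all CD45+ cells changes with the shares of cell types as well as with the level in each, and fewer cells of a type cannot be told apart from less RNA per cell in such sums. Neutrophils, the class with the highest levels, made up 8.89% of kept cells in PDL1 and 8.88% in minP1_PDL1, against 2.55% in Control and 5.31% in minP1. The Cxcl9 cluster made up 5.26% and 5.81%, against 3.11% and 2.95%. The summed level of 25 neutrophil marker genes, all with counts, ran from 1855 to 2889 CPM in PDL1 and from 1955 to 3240 in minP1_PDL1, against 1092 to 1518 in Control and 1302 to 1984 in minP1. Non-immune clusters, which were low for the list, made up 7.88% and 6.41%, against 11.2% and 4.74%. Shares of the summed counts differed from these shares of cells. Neutrophils held 0.39% to 2.1% of a mouse's counts in Control and 1.63% to 2.395% in minP1. They held 1.81% to 3.58% in PDL1 and 2.39% to 4.16% in minP1_PDL1. Non-immune clusters held 18.2% to 29.3% in Control and 7.91% to 18.2% in minP1. Their share was 5.11% to 28.3% in PDL1 and 8.27% to 25.2% in minP1_PDL1.

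Holding each class's share of the counts at its mean over mice left a median log2 difference of 0.28 with 38 genes higher. Classes here were the tested ones, the Cxcl9 cluster, the non-immune clusters and the rest. Shares of clusters within a class stayed free. Holding the levels of the classes and letting their shares vary gave 0.09 with 39 higher, beside 0.36 when both varied. Without neutrophils the tested median was 0.30, with 21 genes higher at an unadjusted p under 0.05 by edgeR, and without the non-immune clusters it was 0.23 with 18. Without the Cxcl9 cluster it was 0.33 with 26.

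Within single classes the same contrast was smaller than in all CD45+ cells in T cells and in monocytes and macrophages. In T cells 30 of 40 genes lay higher, with a median of 0.15, and in monocytes and macrophages 33 of 40, with a median of 0.12. In NK cells 27 of the 38 genes tested lay higher, with a median of 0.30. Dendritic cells had 28 of 40 higher and the same median of 0.30. In neutrophils 35 of 40 lay higher, with a median of 0.54, where the median of all genes was itself 0.13. None of the 40 passed edgeR's adjusted threshold in any class (0 in each), against 0.0083% of all genes in dendritic cells and 0% in each of the others. DESeq2 called 1, Rtp4, in neutrophils, among 34 genes in all (0.348%), and 0 in the other classes. Medians moved by over 1.5 times when 1 mouse was left out. The T cell median was 0.05 without PDL1_1, 0.06 without minP1_3 and 0.10 without minP1_PDL1_2, that of monocytes and macrophages 0.07 without minP1_1 and 0.19 without Control_1, and that of dendritic cells 0.16 without PDL1_1 and 0.17 without Control_1.

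At an unadjusted p under 0.05 by edgeR, 12 members were higher in neutrophils, where 6.02% of all genes were. There were 5 in monocytes and macrophages (2.84% of all genes), 2 in T cells (2.41%), 4 in NK cells (2.67%) and 4 in dendritic cells (2.76%). In monocytes and macrophages the 5 were Irf9, Stat2, Oasl2, Rtp4 and Ifi27l2a, and Phf11d was lower there (-0.42, SE 0.14, edgeR adjusted p = 0.689). Without the cells of a doublet score over 0.5, the 12 of neutrophils became 6. In neutrophils the 12 included Rsad2, Isg15, Herc6, Rtp4, Oas3 and Oasl2.

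Neutrophils held few cells per mouse, and Control_1 fell under the minimum of 10, which left 13 mice. Rsad2 in neutrophils, named after its values were seen, had 557.8 and 1144 CPM in the Control mice that remained and 503.1, 1945, 1558 and 1255 in minP1. It had 2940, 3393 and 1223 CPM in PDL1 and 1519, 3001, 1877 and 2333 in minP1_PDL1. The groups overlapped, since PDL1_3, minP1_PDL1_1 and minP1_PDL1_3 lay within the range of the minP1 mice. The log2 difference was 1.15 (SE 0.31, edgeR adjusted p = 0.477).

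Isg15 in neutrophils had 657.6 and 647.7 CPM in Control and 303.4, 535.4, 418.5 and 533.2 in minP1. It had 1239, 954.9 and 557.8 CPM in PDL1 and 914.6, 1311, 873.4 and 686.3 in minP1_PDL1. Of the 7 mice with antibody, PDL1_3 alone lay below the Control mice. Fitted on the log2 scale, it differed by 0.78 (SE 0.24, edgeR adjusted p = 0.483).

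**Figure D3:**
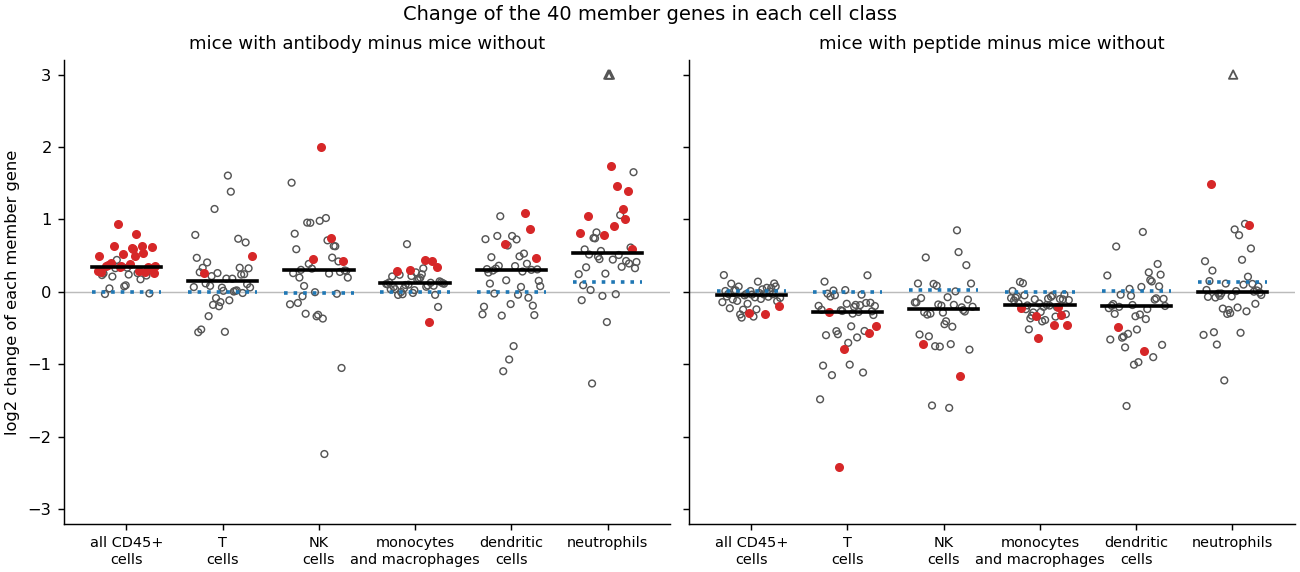
Log2 change of each of the 40 genes (points, in alphabetical order within a class) by cell class, for mice with antibody minus mice without (left) and mice with peptide minus mice without (right). Black lines are the median of the 40 genes, blue dotted lines that of all genes tested, red points have an unadjusted edgeR p under 0.05, and triangles lie beyond 3. The antibody medians are above 0 in every class, at most 0.54 in neutrophils, and the peptide medians are -0.19 or lower in every single class but neutrophils, though not when some mice or cells are left out (-0.04 in dendritic cells without PDL1_1).

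Whether the antibody effect differed between classes was tested within mice against T cells, over 12363 genes. None of the 40 differed in NK cells, monocytes and macrophages or dendritic cells (0 each by edgeR, against 0% of all genes). At an unadjusted p under 0.05, 2 were higher and 2 lower in NK cells (1.3% and 1.68% of all genes), 0 and 0 in monocytes and macrophages (0.712% and 0.413%) and 1 and 0 in dendritic cells (1.71% and 1.35%). DESeq2 was not run on this contrast. In neutrophils 1 gene, Mx2, differed among 64 of all genes (0.518%), and 4 were higher at an unadjusted p under 0.05, where 7.97% of all genes were. The median difference of the 40 genes was 0.46, where that of all genes was 0.11. Mx2 was at 0 CPM in the neutrophils of all 6 mice without antibody. The PDL1 mice had 5.95, 8.41 and 1.68 CPM and the minP1_PDL1 mice 20.5, 0, 10.5 and 40.5, from 93 counts in all. Its fitted log2 difference from T cells of 9.85 (SE 2.16, edgeR adjusted p = 0.0173) rests on those zeros and is no estimate of a fold. In T cells Mx2 ran from 0 to 27.0 CPM, with all groups overlapping.

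Per cell, the members' summed counts per 10000 counts of a cell had a median over all CD45+ cells between 16.1 and 25.5 in the 7 mice without antibody and between 25.1 and 33.2 in the 7 with, which overlapped by a narrow margin. In neutrophils the upper tail lay further apart than the middle. The cell at the 90th percentile had 207 ± 69.5 without antibody (n = 6) and 325 ± 80.1 with (n = 7), and the median cell 70.8 ± 9.42 and 90.9 ± 17.5. Median cells of monocytes and macrophages had 38.1 ± 7.18 and 42.7 ± 4.34, those of NK cells 8.76 ± 1.73 and 11.1 ± 1.70, and those of T cells 18.7 ± 3.32 and 22.1 ± 4.56. All of these ranges overlapped. In the non-immune clusters the median cell had 8.76 ± 1.09 without antibody, at most 10.2, and 13.7 ± 2.25 with, at least 11.7, which did not overlap. These values were not tested, and median counts per cell differed between mice, from 30312 to 57305.

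**Figure D4:**
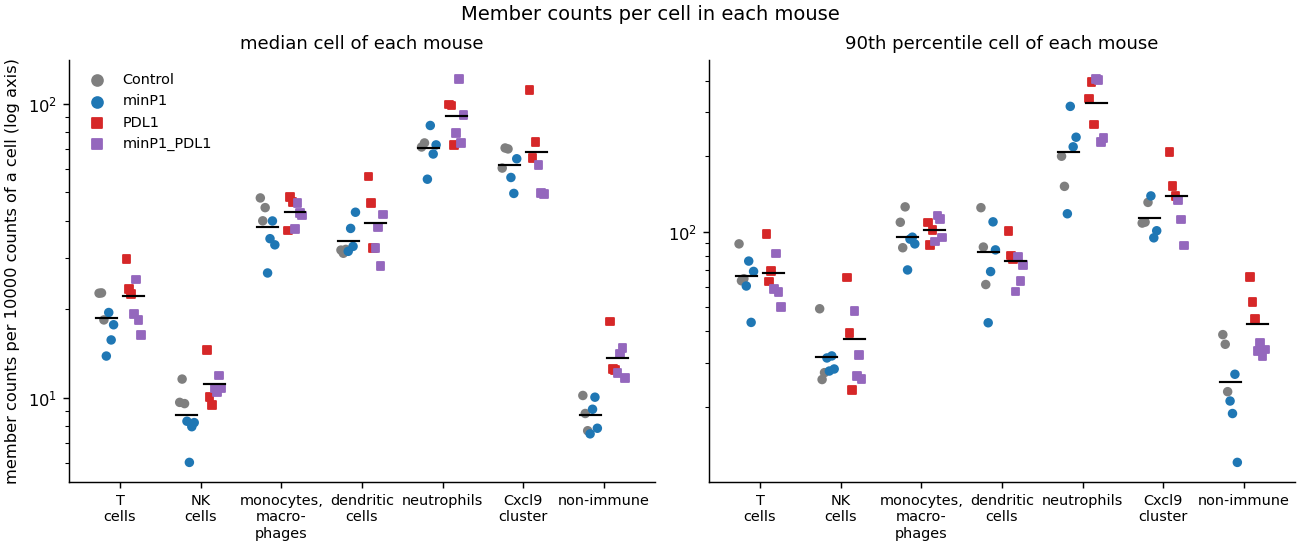
Summed counts of the 40 genes per 10000 counts of a cell (vertical log axis), at the median cell (left) and the 90th percentile cell (right) of each mouse, by cell class (horizontal axis). Circles are mice without antibody, squares mice with it, colours the 4 groups, and short black bars the means of mice. Squares and circles separate at the median of non-immune cells, 7.54 to 10.2 against 11.7 to 18.2, and overlap in the other classes.

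The second question was what the peptide did, with or without the antibody. In all CD45+ cells the difference was small, with 14 of 40 genes higher in the 8 mice with peptide than in the 6 without and a median of -0.04. In monocytes and macrophages 37 of the 40 lay lower, with a median of -0.19 against 0.01 over all 14896 genes. In T cells 36 of 40 lay lower, with a median of -0.27 against 0.00. None passed edgeR's adjusted threshold in either class (0, against 0% of all genes). DESeq2 called 1, Xaf1, in monocytes and macrophages, among 15 genes in all (0.101%), and 0 in T cells. At an unadjusted p under 0.05 by edgeR, 7 were lower in monocytes and macrophages, where 2.53% of all genes were. These were Stat2, Isg20, Samd9l, Isg15, Ifi27l2a, Phf11d and Xaf1. This count was 3 without Control_1, PDL1_3 or minP1_PDL1_4, 4 without minP1_PDL1_1 or minP1_PDL1_3, and 1 without the cells of a doublet score over 0.5. In T cells 5 were lower, where 1.97% of all genes were, namely Zbp1, Stat2, Ifit3b, Isg15 and Ifi27l2a. NK cells had 29 of 38 lower (median -0.23) and dendritic cells 29 of 40 (median -0.20), with 2 lower each at an unadjusted p under 0.05, where 2.21% and 2.12% of all genes were. The NK cell median was -0.10 without PDL1_1, -0.15 without Control_1 and -0.39 without PDL1_3. The dendritic cell median was -0.04 without PDL1_1, -0.07 without Control_2, -0.13 without minP1_1 and -0.00 without the cells of a doublet score over 0.5. Without those cells the median was -0.09 in monocytes and macrophages and -0.16 in T cells. Neutrophils had 20 lower and 20 higher.

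Xaf1, which promotes cell death by binding the inhibitor XIAP, had 92.4, 81.6 and 101.2 CPM in the monocytes and macrophages of Control and 83.7, 85.65 and 104.1 in those of PDL1. It had 49.4, 62.2, 72.7 and 59.9 CPM in minP1 and 68.5, 79.9, 67.9 and 74.5 in minP1_PDL1. Every mouse with peptide lay below every mouse without, which held for 9 of all genes there (0.0604%). The log2 difference was -0.46 (SE 0.10, edgeR adjusted p = 0.553), and -0.19 without the cells of a doublet score over 0.5.

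Isg20, an exonuclease that degrades single-stranded RNA, had 56.6, 35.2 and 48.3 CPM in Control and 34.0, 37.8 and 36.9 in PDL1. It had 24.4, 18.3, 29.6 and 22.3 CPM in minP1 and 23.1, 30.9, 26.0 and 39.3 in minP1_PDL1. The mouse minP1_PDL1_4 alone lay among the mice without peptide. Fitted on the log2 scale, it differed by -0.63 (SE 0.15, edgeR adjusted p = 0.701).

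Phf11d had 50.7, 28.6 and 34.0 CPM in Control and 28.3, 31.0 and 34.0 in PDL1. It had 26.5, 37.2, 29.6 and 27.6 CPM in minP1 and 19.1, 20.3, 20.6 and 22.4 in minP1_PDL1. The 4 mice with both agents lay below the other 10, while minP1 overlapped Control and PDL1. The log2 difference for the peptide was -0.46 (SE 0.14, edgeR adjusted p = 0.762), and -0.73 without the cells of a doublet score over 0.5.

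**Figure D5:**
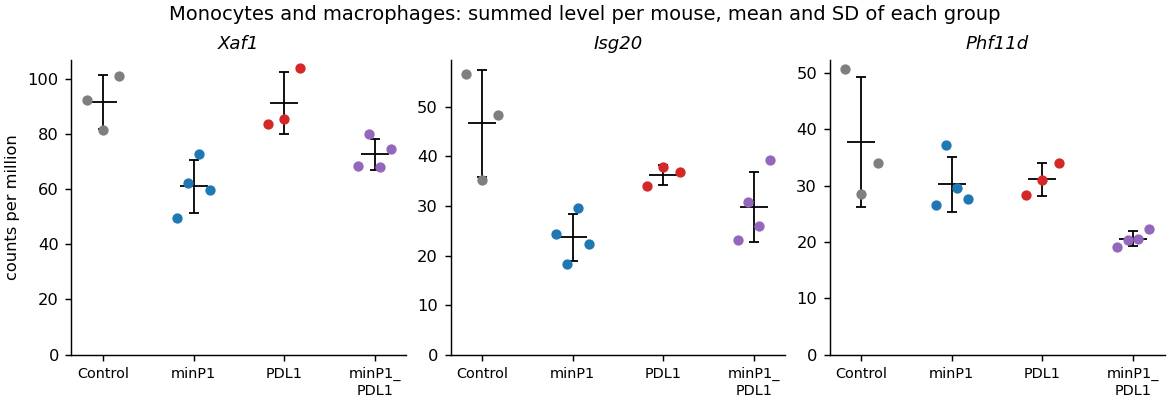
CPM of Xaf1, Isg20 and Phf11d in the summed monocytes and macrophages of each mouse (vertical axis), by group (horizontal axis), with black marks for group means and bars for SD. The minP1 and minP1_PDL1 points of Xaf1 lie between 49.4 and 79.9, below the lowest mouse without peptide at 81.6, and the minP1_PDL1 points of Phf11d lie between 19.1 and 22.4.

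The pairs of groups, which share their control mice and are given side by side, showed where these differences lay. In all CD45+ cells, 37 of the 40 genes lay higher in PDL1 than in Control (median 0.41) and 36 in minP1_PDL1 than in Control (median 0.29), while minP1 and Control were close (19 higher, median -0.02). Antibody added to peptide gave 38 higher (median 0.30), and peptide added to antibody 33 lower (median -0.09). In monocytes and macrophages PDL1 and Control were close (20 higher, median 0.00), minP1 had 37 lower than Control (median -0.30), and minP1_PDL1 had 35 higher than minP1 (median 0.27). In T cells minP1_PDL1 had 33 lower than PDL1 (median -0.48). None of the 40 passed edgeR's adjusted threshold in the pairs within T cells or within monocytes and macrophages. No gene of the 40 passed edgeR's adjusted threshold in these pairs in all CD45+ cells (0, and 0% of all genes). At an unadjusted p under 0.05, 20 were higher in PDL1 than in Control (2.98% of all genes), 9 in minP1_PDL1 than in Control (4.85%) and 15 in minP1_PDL1 than in minP1 (2.75%), while 3 were lower in minP1_PDL1 than in PDL1 (1.94%). DESeq2 called Oas3 and Rtp4 for PDL1 against Control, among 48 genes in all (0.261%), and Herc6 and Oas3 for minP1_PDL1 against Control, among 144 (0.782%).

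The interaction, which tests whether the effect of one agent differs with the other, gave no gene of the 40 in all CD45+ cells (0 by edgeR, against 0% of all genes, and 0 by DESeq2). At an unadjusted p under 0.05 it gave 0 as well, where 2.25% of all genes were positive and 2.23% negative. The smallest p was that of Xaf1, which had 64.6, 61.1 and 64.2 CPM in Control and 50.8, 63.7, 65.3 and 62.8 in minP1. It had 85.3, 77.5 and 86.7 CPM in PDL1 and 61.0, 65.0, 67.8 and 73.2 in minP1_PDL1. The PDL1 mice stood above all others, and the interaction was -0.26 (log2, SE 0.14, edgeR adjusted p = 1.00), with -0.13 without the non-immune clusters and -0.52 without the cells of a doublet score over 0.5. Ifi35, which binds the signalling protein NMI, had 63.8 ± 2.98 CPM in minP1_PDL1, 58.6 ± 0.854 in PDL1, 57.5 ± 1.97 in minP1 and 60.8 ± 5.47 in Control. Its interaction was 0.20 (SE 0.12, edgeR adjusted p = 1.00), or 0.13 without Control_1, and its groups overlapped. Within single classes the interaction, tested by edgeR and DESeq2, called none of the 40.

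The other genes of the pathway were read from lists that are not among the 40. Of 20 type I and III interferon genes, Ifnb1 alone was in the table. It had counts in 7 of 7732 cells, 269 counts in all, of which 238 were in 1 non-immune cell, and it was too rare to be tested. The receptor chain Ifnar1 had mean CPM of 115.8 ± 7.64 (Control), 121.7 ± 6.16 (minP1), 116.1 ± 10.5 (PDL1) and 116.5 ± 12.4 (minP1_PDL1) in all CD45+ cells. Its antibody effect was -0.03 (log2, SE 0.07, edgeR adjusted p = 0.956). The other chain, Ifnar2, had 125.9 ± 16.6, 141.0 ± 23.8, 137.9 ± 7.43 and 167.4 ± 27.3 CPM in the same order, with an antibody effect of 0.19 (SE 0.10, edgeR adjusted p = 0.663). Values of both receptor chains in single mice overlapped between mice with and without antibody.

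Among the lists, 39 of 40 further interferon-stimulated genes lay higher with antibody in all CD45+ cells (median 0.22), as did 19 of 21 genes led by interferon gamma (median 0.22). The receptor and its kinases had 5 of 6 higher (median 0.13), the nucleic acid sensing genes 12 of 17 (median 0.11) and the negative regulators 8 of 9 (median 0.14). None of these passed edgeR's adjusted threshold (0 in each list), with 16, 7, 1, 1 and 0 higher at an unadjusted p under 0.05 and 1 sensing gene lower. The shares of all genes at that p are those given above for the antibody in all CD45+ cells. Counts of 1, 1 and 0 do not set the lists of 6, 17 and 9 genes apart from other genes. With peptide, in monocytes and macrophages, 30 of the 40 further interferon-stimulated genes lay lower (median -0.08), and of 20 interferon gamma genes 10 lay lower and 10 higher (median 0.00).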

How the data were processed

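Single CD45+ cells were captured on a bead system, with mice told apart by hashtag antibodies per the labels' protocols. The deposited table holds the authors' whole-number read counts per gene and cell, made with cutadapt 2.10 and Bowtie2 2.3.4.1 against mm10, per the submitters' processing notes, which also name Seurat 2.3.4. The values (median above 0 of 10, 18.0% equal to 1) show no collapse by molecular identifier. The labels give 7613 cells past the authors' own quality check, whose limits are not given in the sources used here, and 8115 barcodes belonged to the 14 mice. The 147 columns of doublets or undetected tags were not used.

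Cells with over 25% mitochondrial counts (383) or under 200 genes (0) were removed. Clusters came from 2000 variable genes without the 40 members, 30 components, 20 neighbours and Leiden resolution 1.0 (leidenalg 0.10.2, scikit-learn 1.9.0, python 3.11.15). A cluster was named by at least 3 markers among its top 50 genes found in 25% of its cells, and it was set aside where another class had more markers among its top 10. Other interferon-stimulated genes took part in the clustering. A simulated doublet score over 0.5 marked 24.2% of cells and 68.1% of simulated doublets, so those cells were kept and left out only as an alternative.

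Raw counts were summed per mouse and class where a mouse had at least 10 cells, filtered with filterByExpr, scaled by TMM and tested with edgeR 4.0.16 (R 4.3.3, limma 3.58.1) by quasi-likelihood, over all 4 groups in one fit. Main effects average over the other agent. CPM of single mice and of groups are TMM-scaled within a class, while CPM that compare classes or cell types are of the class's own total. SE is the fold divided by the root of F. P-values were adjusted by Benjamini-Hochberg over all genes of a fit, and the method was tested on simulated data. Classes were compared with mouse as a block. DESeq2 1.42.0 and the settings named in the closing section were alternatives. Each mouse is 1 replicate. P-values of the treatment contrasts weigh a difference against the spread between mice of a group. Those of the fits with mouse as a block weigh it against the spread left within mice.

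The members and lists were chosen with earlier results of these data known. Genes were named by rule: up to 6 with the smallest p for the antibody in all CD45+ cells, 3 for the peptide in monocytes and macrophages, 2 for the interaction, up to 3 above the other classes per class by size among those called, any gene called for a difference between classes, and the pathway genes Ifnb1, Ifnar1 and Ifnar2. A further pathway gene of that rule is not reported here. Others were named after their values were seen.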

Additional observations from a re-analysis of the deposited data

Results flagged for a closer look

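Over the named genes and the mean log2 level of the 40 genes by class, 36 sets of 4 mice of 1 group were tested, and 3 had a mouse far from the others, where chance gives about 1 in 20. All 3 concerned the mean level. In NK cells, minP1_2 lay at 3.859, while the other minP1 mice lay between 4.435 and 4.513. In dendritic cells, minP1_1 lay at 4.621, below the others at 5.543 to 5.622. In monocytes and macrophages, minP1_PDL1_2 lay at 6.102, above the others at 5.905 to 5.935. The antibody effect on Mx2 differed between neutrophils and T cells by 9.854 on the log2 scale (edgeR adjusted p = 0.0173), from 93 counts of Mx2 in neutrophils.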

How the results depend on the processing

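No called result changed direction, while the peptide's medians near 0 took either sign, from -0.14 to 0.08 in all CD45+ cells and from -0.09 to 0.16 in neutrophils. Of 48 comparisons by class, 39 had 0 members called in every setting and 9 had some. DESeq2 called 8 members for the antibody in all CD45+ cells, 2 for PDL1 and 2 for minP1_PDL1 against Control there, 1 lower in monocytes and macrophages for the peptide and 1 for minP1_PDL1 against Control, and 1 in neutrophils for each of the antibody and PDL1, minP1 and minP1_PDL1 against Control. Cells scaled to one total gave 1 for the antibody in all CD45+ cells. Without a filter on low counts neutrophils had 2 for the antibody, 1 for PDL1 and 2 for minP1_PDL1 against Control. Where no share of all genes is given above, these counts describe the setting and do not set the members apart from other genes. The 25 members higher with antibody at an unadjusted p under 0.05 ran from 20 to 28 when each mouse was left out and from 18 to 29 otherwise. For the peptide in monocytes and macrophages the 7 lower ran from 3 to 10 when each mouse was left out, with 4 under the replicate block and 1 without cells of doublet score over 0.5. That last setting also gave 6 for the antibody in neutrophils (9 to 13 when each mouse was left out), 8 members higher in dendritic cells and 1 lower in monocytes and macrophages, which was 1 with members among the variable genes, 0 without a filter and 1 to 3 when each mouse was left out. Members lower in neutrophils were 4 by DESeq2 and 2 to 4 when each mouse was left out. The promoter share was 50% for the core alone. Cells scaled to one total moved the antibody median in monocytes and macrophages to 0.22 and in dendritic cells to 0.08, the peptide median in NK cells to -0.36 and in dendritic cells to -0.12, and the antibody difference of Isg15 to 0.80 and Herc6 to 0.64. Without cells of doublet score over 0.5 the antibody median was 0.07 in T cells, which was 0.09 with members among the variable genes, and 0.17 in dendritic cells, and Herc6 differed by 0.58. The cause of these shifts was not tested.

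For 13233 genes, each mouse's log2 level was taken as its deviation from the mean of its group. These deviations correlated at a median of 0.057 over 19 pairs of same-numbered mice of different groups (from -0.105 to 0.389, 6 over 0.1). The median was -0.016 over 54 pairs of mice with other numbers. The labels give no run per mouse, so whether same-numbered mice shared one cannot be told. The replicate block gave 26 members higher with antibody in all CD45+ cells. Few neutrophils per mouse, and the shallow depth of their cells, limit what can be seen there.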
